A study of Homo sapiens with 4 samples.

Results

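Open chromatin was described at 6 genes of primed pluripotency, LIN28A, LIN28B, DNMT3B, PRDM14, SALL4 and DPPA4, in the established H1 line of human embryonic stem cells. A deposited peak belonged to these loci when it lay within 50 kb of 1 of the genes on build hg19, which gave 148 peaks in 69 regions out of 87980 regions in the whole series. The 69 regions comprised 15 at LIN28A, 12 at LIN28B, 21 at DNMT3B, 10 at PRDM14, 4 at SALL4 and 7 at DPPA4. On hg19 LIN28A lies at chr1:26737269-26756213, LIN28B at chr6:105404923-105531207 and DNMT3B at chr20:31350191-31397162, all on the plus strand. PRDM14 lies at chr8:70963886-70983562, SALL4 at chr20:50400583-50419048 and DPPA4 at chr3:109044988-109056419, all on the minus strand. The windows around the genes spanned 842 kb together. ATAC-seq, in which a transposase cuts and tags accessible DNA, was run on 4 libraries. The control cells were kept without feeder cells in growth medium with N2, B27 and basic fibroblast growth factor at 20 ng/ml. The other groups received Activin A at 25 ng/ml, Wnt3a at 25 ng/ml, or both ligands at 25 ng/ml each, for 6 h in a medium that lists B27 but neither N2 nor the growth factor. Ligand and medium therefore cannot be told apart against control, whereas the 3 treated groups shared 1 medium. All 4 libraries came from the same line and carry the same label for an early stage of mesendoderm differentiation, control included.

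Primed pluripotency is the state of human embryonic stem cells in standard culture, close to that of the epiblast after implantation. It depends on signalling by fibroblast growth factor and by Activin or Nodal, while Wnt signalling together with Activin directs such cells towards mesendoderm. LIN28A and LIN28B are RNA-binding paralogues that block maturation of the let-7 microRNAs, DNMT3B is a de novo DNA methyltransferase, PRDM14 and SALL4 are transcription factors of the pluripotency network, and DPPA4 is a chromatin protein with a DNA-binding SAP domain. An ATAC-seq peak near such a gene marks DNA that was accessible, and it does not measure transcription.

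List lengths differed widely, with 26223 control peaks, 75585 Activin A peaks, 21078 Wnt3a peaks and 58382 peaks with both ligands. Each peak carries the authors' own score, which here served only to place the peak within its own list, as the percentage of that list's peaks with an equal or lower score. A longer list adds weak peaks below a given peak and so lifts its percentile, and percentiles of different lists are therefore values side by side and show no change. For comparisons the peaks were ranked again among regions present in both or in all of the lists compared, or each list was cut to its 21078 best peaks. A region was called gained when a treated list had a peak there and control did not, and lost in the reverse case. A strong region had a peak in the top 25% of its list. With 1 library per group the spread between replicates is unknown and no difference could be tested. The identity of the cells was not checked at the marker genes POU5F1, SOX2 and NANOG, whose hg19 positions were not used here.

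RefSeq promoter entries were found for 3 of the 6 genes, LIN28B, DNMT3B and DPPA4. The entry for DNMT3B is an internal start 29505 bases before the end of the gene, whereas the gene as defined here spans 46972 bases, so its letters are not shown. The sequences printed are the 250 bases before 2 starts of LIN28B and before the start of DPPA4, because the peak lists differed between groups at or near these starts. They are written 5′ to 3′ along the gene in GRCh38.p14, at chr6:104940715-104940964 and chr6:104956857-104957106 on the plus strand and chr3:109337547-109337796 on the minus strand. Capitals mark matches on either strand to CAGAC (SMAD site), CTTTGA (TCF/LEF), ATTTGCAT (octamer of POU factors), ACAATG (SOX), CCAAT (bound by NF-Y), GGGCGG (GC box) and GCCATNTT (YY1).
LIN28B upstream start: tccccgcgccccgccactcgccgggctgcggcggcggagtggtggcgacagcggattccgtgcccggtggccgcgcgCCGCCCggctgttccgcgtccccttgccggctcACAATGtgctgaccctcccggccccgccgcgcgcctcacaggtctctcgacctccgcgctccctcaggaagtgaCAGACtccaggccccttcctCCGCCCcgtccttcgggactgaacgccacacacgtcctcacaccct
LIN28B inner start: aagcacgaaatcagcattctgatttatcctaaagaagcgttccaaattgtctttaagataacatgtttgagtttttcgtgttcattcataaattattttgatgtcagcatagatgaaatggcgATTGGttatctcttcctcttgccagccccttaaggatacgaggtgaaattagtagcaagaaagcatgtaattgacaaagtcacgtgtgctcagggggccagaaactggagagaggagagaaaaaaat
DPPA4 start: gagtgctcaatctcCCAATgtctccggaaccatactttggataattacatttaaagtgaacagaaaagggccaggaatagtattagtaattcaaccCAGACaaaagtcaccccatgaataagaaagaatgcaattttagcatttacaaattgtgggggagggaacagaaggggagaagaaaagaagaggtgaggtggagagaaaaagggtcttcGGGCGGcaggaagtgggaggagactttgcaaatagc
The inner start of LIN28B lies 126226 bases before the end of the gene in RefSeq, against a span of 126285 bases on hg19, and the upstream start lies 142368 bases before it. The DPPA4 start lies 11403 bases before the far end of that gene, against a span of 11432 bases. These distances were compared without converting any coordinate. The upstream window of LIN28B was 73.6% G and C and held 33 CpG dinucleotides, the inner window was 38.4% with 6 CpG, and the DPPA4 window was 43.2% with 3 CpG. The medians over 35116 promoter windows of the same length were 58.0% and 11 CpG.

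The SMAD letters occurred once in the upstream LIN28B window and once in the DPPA4 window, and 38.0% of all promoter windows held it. CCAAT occurred in the inner LIN28B and the DPPA4 windows (32.0% of all windows), the GC box in the upstream LIN28B and DPPA4 windows (42.6%), and the SOX letters in the upstream LIN28B window (9.29%). None of the 3 windows held the letters of the TCF/LEF, octamer or YY1 motif, found in 11.2%, 1.63% and 3.86% of all windows. Every match is a description of letters and not evidence of binding.

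The loci followed the lengths of the lists. Within the windows were 23 control peaks, 58 Activin A peaks, 19 Wnt3a peaks and 48 peaks with both ligands. Relative to control these were 2.52, 0.826 and 2.09 times as many. The whole lists stood at 2.88, 0.804 and 2.23 times control. Control peaks covered 22 of the 69 regions (31.9%, exact 95% interval 21.2 to 44.2) and Wnt3a peaks 18 (26.1%, 16.3 to 38.1), against 28.2% and 22.5% of all regions. Activin A peaks covered 55 (79.7%, 68.3 to 88.4) and peaks of the combined treatment 47 (68.1%, 55.8 to 78.8), against 83.1% and 63.7%. Of the 69 regions, 11 (15.9%, 8.24 to 26.7) had a peak in all 4 lists, against 14.8% of all regions. Another 16 (23.2%, 13.9 to 34.9) had peaks in the Activin A and combined lists only, against 21.9% of all regions, and 29 (42.0%, 30.2 to 54.5) in 1 list only, against 46.0%. A further 4 (5.80%, 1.60 to 14.2) were in the 3 treated lists and not in control, against 5.25%. The interval of each of these 8 shares included the share over all regions. The intervals take the regions as independent, although they cluster at a few genes and the shares overlap. Inclusion is therefore a description and not a test.

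**Figure D1:**
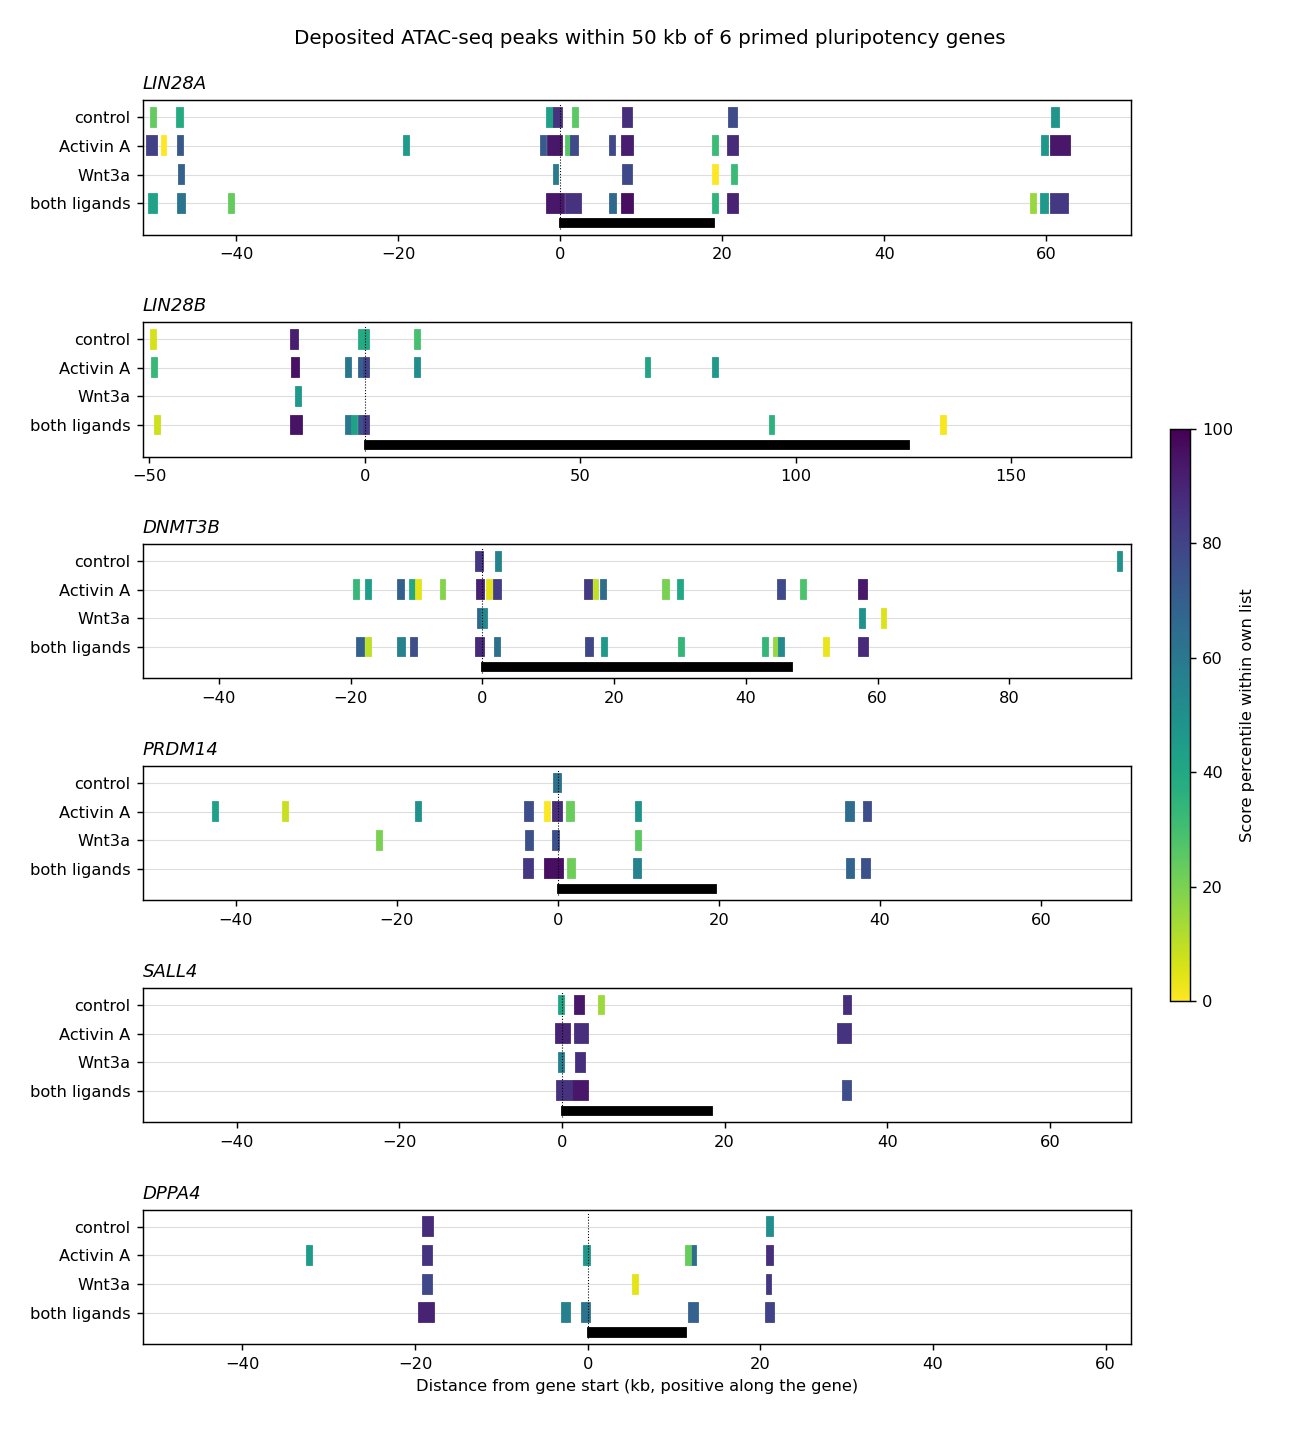
Deposited peaks around each gene in the 4 groups, by distance from the gene start in kb, positive in the direction of transcription. The black bar is the gene and the colour of a peak is its score percentile within its own list, from 0 to 100; narrow peaks are drawn wider than they are. DNMT3B has 3 control and 17 Activin A peaks, whereas SALL4 has 4 and 3.

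The counts differed between the genes. DNMT3B had 3 peaks in control, 17 with Activin A, 4 with Wnt3a and 14 with both ligands, and PRDM14 had 1, 10, 4 and 6 in the same order. Relative to control these were 5.67, 1.33 and 4.67 times as many at DNMT3B and 10, 4.0 and 6.0 times at PRDM14, the latter over a single control peak. SALL4 had 4, 3, 2 and 3 peaks (0.75, 0.50 and 0.75 times control), so that its window was the only one with fewer peaks in each treated list. LIN28A had 8, 14, 5 and 12 peaks (1.75, 0.625 and 1.5 times control) and LIN28B had 5, 8, 1 and 8 (1.6, 0.20 and 1.6 times). At LIN28A, LIN28B and SALL4 the Wnt3a list held the fewest peaks, and it is also the shortest list. DPPA4 had 2, 6, 3 and 5 peaks, and its 3.0 and 2.5 times control for Activin A and the combination lay near the 2.88 and 2.23 times of the whole lists. Its 1.5 times control for Wnt3a, over only 2 control peaks, stood above the 0.804 times of the whole Wnt3a list. With so few peaks per gene, no gene was tested against the whole lists.

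Peaks within 1 kb of the gene start were found in all 4 lists at LIN28A, DNMT3B, PRDM14 and SALL4. At LIN28B the Wnt3a list had none, and at DPPA4 neither the control nor the Wnt3a list had one. Over the 4 genes with a start peak in every list, the median percentile was 73.7 for control, 90.5 for Activin A, 62.8 for Wnt3a and 91.0 for the combination. The Activin A and combined lists are the longest. Ranked among the 13016 regions present in all 4 lists, where the median is 50 in each group by construction, the same medians were 55.0, 51.0, 47.3 and 62.7. The gaps between the long and the short lists were thus smaller on the common scale. Among these medians Activin A then stood below control, while the combination stayed the highest and Wnt3a the lowest. The single genes did not all share this order. Wnt3a ranked above control at the starts of PRDM14 (63.8 beside 39.8) and SALL4 (40.8 beside 20.0), and below it at LIN28A (42.7 beside 72.8) and DNMT3B (51.9 beside 70.2). At the DNMT3B start control was the highest, and at the SALL4 start Activin A was.

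**Figure D2:**
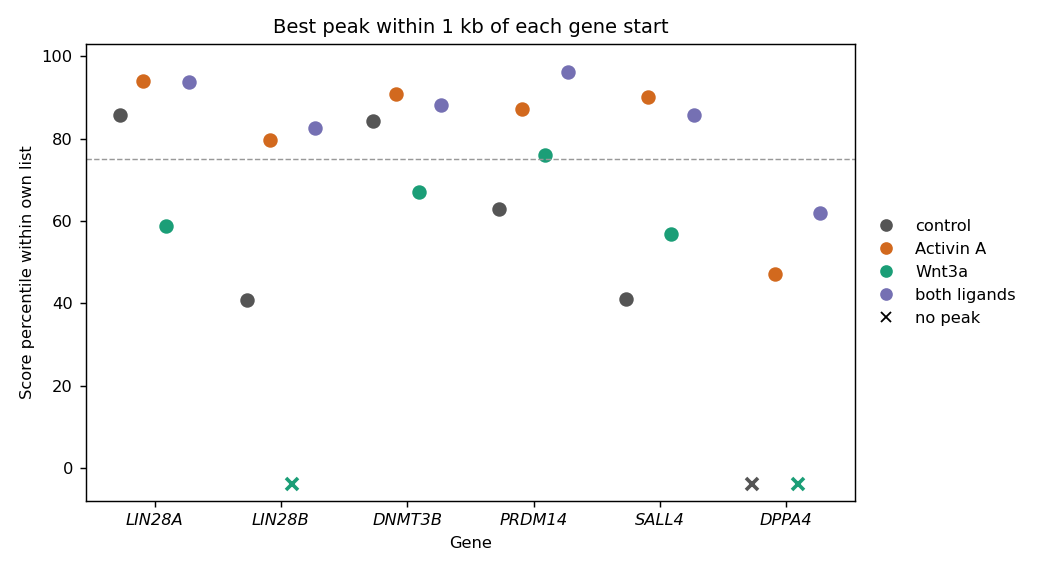
Score percentile within its own list of the best peak within 1 kb of each gene start, by gene and group, with crosses for no peak and a dashed line at 75. At DPPA4 the only peaks are those of Activin A (47.1) and of the combination (62.0), and LIN28B has none for Wnt3a.

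LIN28A, the let-7 antagonist expressed in pluripotent cells, had an open start in every group. The region at its start, chr1:26735601-26737770 on hg19, stood at percentile 85.8 in control, 94.0 with Activin A, 58.7 with Wnt3a and 93.8 with both ligands. Among regions in all 4 lists it ranked at percentile 72.8, 66.6, 42.7 and 73.0, so that control and the combined treatment were nearly level and Wnt3a was the lowest. The peak was 2170 bp wide after both ligands and 1821 bp after Activin A. In control the same stretch held 2 peaks of 729 and 1024 bp, and after Wnt3a 1 peak of 597 bp. Just inside the gene, chr1:26737954-26739815 stood at 25.6 in control, 77.4 after Activin A and 85.6 after both, with no Wnt3a peak. Among the regions shared by control and the combined list, this one ranked 43.9 points higher after both ligands, the largest upward shift of any region at the loci in that comparison. Its percentile was 17.9 points higher after Activin A among the regions shared by control and Activin A.

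Inside LIN28A, the region 8.3 kb from the start (chr1:26744901-26746263) was among the strongest of the loci in every list. Its percentile was 86.9 in control, 92.0 with Activin A, 77.9 with Wnt3a and 96.1 with both ligands. On the scale of the regions in all 4 lists it ranked at 74.8, 57.1, 66.3 and 82.7, highest with both ligands and lowest with Activin A alone. A weaker neighbour at 6.5 kb (chr1:26743428-26744171) had a peak only after Activin A (78.0) and after both ligands (66.6), 0.894 kb from the nearest control peak. It was the highest-ranking gained region of LIN28A.

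Beyond the gene, towards DHDDS, the next protein-coding gene in RefSeq, the region 21.3 kb from the start (chr1:26757916-26759265) stood at 77.2 in control, 87.6 with Activin A, 32.4 with Wnt3a and 90.3 with both. Its rank among regions in all 4 lists was 58.5, 40.0, 19.4 and 59.5, so that it stood lowest after Wnt3a, as at the gene start. The region 46.8 kb upstream went the other way, with ranks of 18.5, 11.4, 54.7 and 9.78, highest after Wnt3a. Near the edges of the window, chr1:26686289-26687465 stood at 24.2 in control, 80.7 after Activin A and 42.3 after both, and chr1:26797877-26800158 at 47.8, 94.0 and 83.7, and neither had a Wnt3a peak. Whether these regions lie at the starts of other genes was not analysed here.

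LIN28B, the paralogue of LIN28A, had its strongest region not at the start used here but 15.9 kb upstream, at chr6:105387708-105390291. The RefSeq upstream start, whose G and C rich letters are shown above, is 16.1 kb farther from the end of the gene than the hg19 start used here, close to the distance of this region, and the antisense gene LIN28B-AS1 overlaps LIN28B in RefSeq, so that the region cannot be given to 1 of the genes. The region reached percentile 91.6 in control, 95.5 with Activin A, 46.3 with Wnt3a and 95.0 with the combination. Its rank among regions in all 4 lists was 83.5, 74.4, 30.6 and 78.1, and the Wnt3a library stood 52.9 points below control, the widest span of any region at the loci. The Wnt3a peak was also narrow, at 417 bp against 1644 bp in control, 1683 bp after Activin A and 2584 bp after both. In their own lists these widths stood at percentile 4.47, 98.6, 95.3 and 99.4.

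Around the inner start of LIN28B, 2 neighbouring regions were found in control, with Activin A and with both ligands but not after Wnt3a. The region over the start, chr6:105404718-105405786, stood at 40.8, 79.7 and 82.5 in these lists, and the one just before it, chr6:105403599-105404639, at 38.8, 69.3 and 75.7. Among regions shared with control, the first ranked 23.8 points higher after both ligands and 8.36 points higher after Activin A. Absence from the Wnt3a list was common at this strength: of all control regions between percentiles 40 and 45, 59.9% (57.1 to 62.7) had no Wnt3a peak. Of 5 control regions at LIN28B, 4 lacked a Wnt3a peak, against 46.5% of all control regions, and the region 15.9 kb upstream was the exception. With so few regions this difference was not tested. The gained region with the highest percentile at LIN28B, 3.9 kb upstream at chr6:105400713-105401392, was found after Activin A (60.9) and after both (59.9), and no gained region of this gene reached the top 25% of a list. Across the rest of the gene body the peaks were few and weak, with none shared by 2 treatments.

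DNMT3B, which sets new DNA methylation in the early embryo, had 1 region with a peak in every list, at its start (chr20:31349210-31350927). This stood at 84.3 in control, 90.9 with Activin A, 67.0 with Wnt3a and 88.1 with both ligands. Among regions in all 4 lists its rank was 70.2 in control and 52.4, 51.9 and 52.3 in the treated groups, which were level with each other. Control stood 18.3 points above the lowest of them, the narrowest span of the 11 regions found in all lists. A shift of this size was not unusual. The median absolute shift over all shared regions was 13.8 points for Activin A against control, 16.8 for Wnt3a and 14.0 for both ligands. A very weak peak 1.0 kb from the start (4.34) was in the Activin A list only. The region 2.3 kb inside the gene (chr20:31352016-31352961) was found in control (55.2), after Activin A (82.0) and after both (63.3).

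The DNMT3B regions with no control peak lay between 18.7 kb upstream of the start and 61.0 kb past it. Of its 17 Activin A regions, 15 had no control peak, where 70.0% of all Activin A regions had none. Of its 21 regions, 8 were shared by the Activin A and combined lists alone, against 21.9% of all regions. Within the gene, chr20:31365798-31366951, 16.2 kb from the start, stood at 83.0 after Activin A and 79.2 after both, 12.9 kb from the nearest control peak. The internal RefSeq start is 17.5 kb nearer the end of the gene than the start used here, and a weak Activin A peak (9.73) at 17.3 kb lay close to that distance. Near the end of the gene, chr20:31394674-31396092 stood at 77.4 after Activin A and 52.4 after both. Upstream, chr20:31339294-31340222 had the reverse order, at 40.1 after Activin A and 76.4 after both, and ranked 50.1 points higher in the combined list among the regions shared by both lists. The region 18.7 kb upstream also ranked higher in the combined list, by 46.5 points.

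Past the end of DNMT3B, towards MAPRE1, the region 57.9 kb from the start (chr20:31407363-31408731) was in all 3 treated lists and not in control. It stood at 93.6 with Activin A, 49.6 with Wnt3a and 87.9 with both ligands, with the nearest control peak 37.9 kb away. Absence from control was uncommon at these ranks in the long lists, at 7.82% (6.98 to 8.72) of all Activin A regions between percentiles 90 and 95 and 13.5% (12.3 to 14.8) of combined regions between 85 and 90. It was frequent at the Wnt3a rank, at 41.5% (38.3 to 44.6) of Wnt3a regions between 45 and 50. The region was named as the highest-ranking gained region of its gene, so these shares do not measure how rare it is. Whether the region lies at the start of MAPRE1 was not analysed here. The only region of the DNMT3B window found in control alone was at the far edge, 96.8 kb from the start (48.8). Of all control regions between 45 and 50, the Activin A list lacked 8.56%, the Wnt3a list 57.9% and the combined list 11.2%.

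PRDM14, a PR domain regulator that maintains human pluripotency, had a single control peak, at its start. The region there, chr8:70982893-70985202, stood at 63.0 in control, 87.2 with Activin A, 76.1 with Wnt3a and 96.3 with both ligands. Its rank among regions in all 4 lists was 39.8, 38.8, 63.8 and 83.5. On that scale Activin A was level with control, Wnt3a stood higher, and the combined library was the highest. In pairs, the start ranked 34.4 points higher after both ligands than in control, 16.7 higher than after Activin A and 15.5 higher than after Wnt3a. The combined peak was 2310 bp wide (width percentile 98.9 in its list), against 820 bp in control, 724 bp after Wnt3a, and 2 separate Activin A peaks of 1133 and 597 bp.

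The region 3.6 kb upstream of PRDM14, chr8:70986597-70987771, was in all 3 treated lists and absent from control. It stood at 76.3 with Activin A, 75.5 with Wnt3a and 84.2 with both ligands, 2.63 kb from the control peak at the start. Among all Wnt3a regions between percentiles 75 and 80, 10.4% (8.61 to 12.4) had no control peak. The same share was 47.5% (45.9 to 49.1) for Activin A at 75 to 80 and 23.7% (22.2 to 25.3) for both ligands at 80 to 85. As the highest-ranking gained region of its gene it was picked by rank, so these shares do not measure how rare it is. Of 6 strong Wnt3a regions at the loci the region upstream of PRDM14 was the only one that lacked a control peak (16.7%, 0.421 to 64.1), against 5.12% of all strong Wnt3a regions. None of the 6 strong Wnt3a regions at the loci lacked an Activin A peak (0.116% of all) or a combined peak (0.366%). Within the treated groups the rank of the region upstream of PRDM14 was 41.2 points lower after Activin A than after Wnt3a and 16.8 points lower after both than after Wnt3a.

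Other PRDM14 regions were weaker. Beyond its end, towards SLCO5A1, chr8:70944672-70945752 stood at 76.2 after Activin A and 75.4 after both, and a neighbour 36.3 kb from the start at 64.6 and 67.7. A region 9.9 kb inside the gene had peaks after Activin A (48.4), Wnt3a (25.2) and both ligands (55.5). In all, 8 of 9 Activin A regions, 3 of 4 Wnt3a regions and 5 of 6 combined regions at PRDM14 had no control peak. Over the whole lists 70.0%, 33.1% and 62.5% of regions had none. Absence from control was thus common in the long lists and less so in the Wnt3a list, the shortest. With so few regions at PRDM14 none of the 3 differences was tested.

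SALL4, a zinc finger factor of the pluripotency network, had only 3 Activin A, 2 Wnt3a and 3 combined regions, and none of them was gained. Over the whole lists 70.0%, 33.1% and 62.5% of regions were gained, and with so few regions the difference was not tested. Its start, chr20:50417862-50419729, stood at 41.0 in control, 90.2 with Activin A, 56.9 with Wnt3a and 85.8 with both ligands. Among regions in all 4 lists it ranked at 20.0, 49.5, 40.8 and 45.2, so that control was the lowest and the treated groups lay closer to each other than to control. The region 2.3 kb inside the gene, chr20:50415859-50417705, had the opposite order. It stood at 94.1, 86.4, 86.8 and 94.0 in the full lists, and its common rank was 88.3 in control, 36.2 with Activin A, 79.4 with Wnt3a and 73.7 with both. Among the regions shared by control and Activin A, the start ranked 34.2 points higher with Activin A and its inner neighbour 35.6 points lower.

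Past the end of SALL4, towards ATP9A, chr20:50383447-50385108 stood at 87.0 in control, 85.2 after Activin A and 76.2 after both ligands. Its rank among shared regions was 30.3 points lower than control after Activin A and 40.1 points lower after both, the largest downward shift at the loci in the latter comparison. The Wnt3a list had no peak there, and whether the region lies at the start of ATP9A was not analysed here. It was the only strong control region at the loci without a Wnt3a peak, 1 of 8 (12.5%, 0.316 to 52.7), against 9.71% of all strong control regions. A weak region 4.8 kb inside the gene (14.8) was found in control only.

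DPPA4, the only gene of the 6 with no control peak at its start, had start peaks only in the lists for Activin A and the combination. The region chr3:109056137-109057044 stood at 47.1 and 62.0 in these lists, 17.2 kb from the nearest control peak. Absence from control was the rule at such ranks, with 87.7% (86.6 to 88.8) of Activin A regions between percentiles 45 and 50 and 63.4% (61.6 to 65.2) of combined regions between 60 and 65. Neither peak was among the 21078 best of its list. At the DPPA4 start, list length and treatment therefore cannot be told apart. Among regions shared by the 2 lists, it ranked 26.9 points higher after both ligands than after Activin A.

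The strong regions of the DPPA4 window lay away from the start. The region 18.7 kb upstream, chr3:109074238-109076010, stood at 87.7 in control, 85.4 with Activin A, 78.2 with Wnt3a and 90.3 with both ligands, and ranked at 76.2, 33.3, 66.8 and 59.5 among regions in all 4 lists. Activin A alone was the lowest there, as at the inner region of SALL4. Past the end of the gene, towards DPPA2, a related SAP domain gene, chr3:109034863-109035722 stood at 50.4, 86.5, 83.7 and 80.1. Its common rank was 27.3 in control, 36.5 with Activin A, 74.7 with Wnt3a and 31.3 with both. Wnt3a was therefore far above the other groups. Whether the region lies at the start of DPPA2 was not analysed here. At the end of DPPA4 itself, 12.1 kb from the start, peaks were found after Activin A (64.6) and after both ligands (69.2), the highest percentile among gained regions of this gene.

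**Figure D3:**
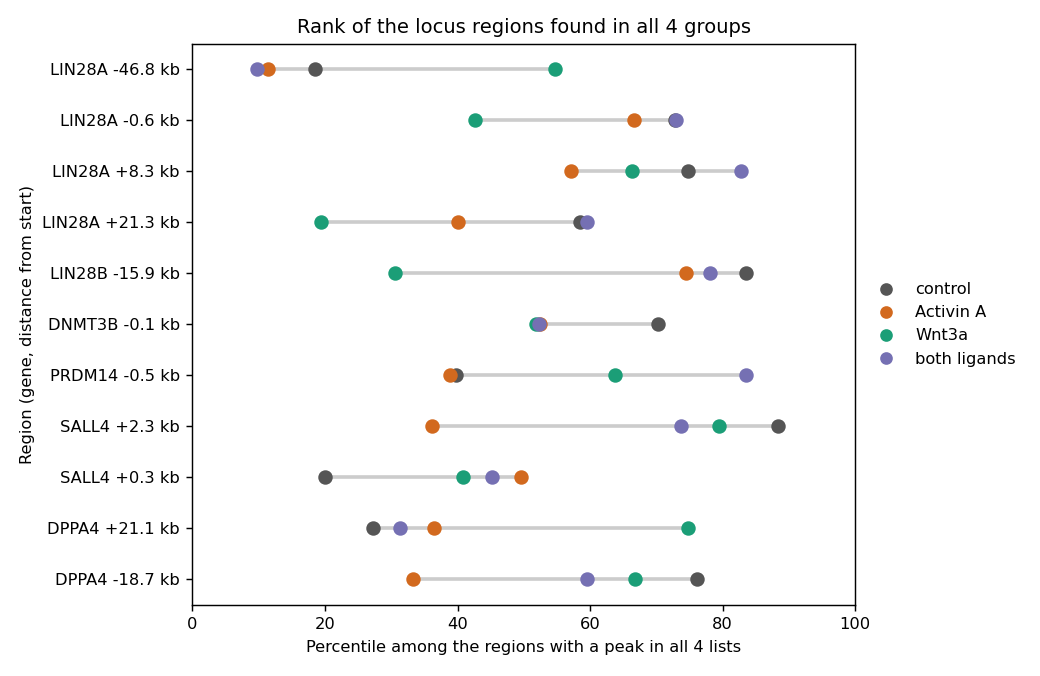
Percentile of each locus region among the 13016 regions with a peak in all 4 lists, with 1 point per group and a grey line from the lowest to the highest. The horizontal axis runs from 0 to 100. Wnt3a is the lowest point at the LIN28A start, 21.3 kb from it, 15.9 kb upstream of LIN28B and, narrowly, at the DNMT3B start. It is the highest point 46.8 kb upstream of LIN28A and 21.1 kb from the DPPA4 start.

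Over the 11 regions present in all 4 lists, control had a median rank of 70.2 (range 18.5 to 88.3), Activin A of 40.0 (11.4 to 74.4), Wnt3a of 54.7 (19.4 to 79.4) and the combination of 59.5 (9.78 to 83.5). Over all regions in the 4 lists each median is 50 by construction. The ranges of the 4 groups overlapped. Wnt3a held the lowest of the 4 values at 4 regions, namely the start and the downstream region of LIN28A, the upstream region of LIN28B and, by less than 1 point, the start of DNMT3B. Activin A held the lowest value at 4 others. At the start of PRDM14 it did so narrowly, at 38.8 beside 39.8 in control. The rest were at 8.3 kb in LIN28A, at 2.3 kb in SALL4 and 18.7 kb upstream of DPPA4. Neighbouring values in each order cannot be separated, since no group had a second library.

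Shifts of at least 20 points in either direction were then counted among the regions shared with control. After Activin A, 3 of 20 regions ranked higher by that much and 3 lower, against 17.8% and 18.6% of all shared regions. After Wnt3a, 4 of 11 were higher and 3 lower, against 22.0% and 21.5%. After both ligands, 4 of 18 were higher and 1 lower, against 18.2% and 18.4%. The median shift of the regions at the loci was -2.50 points with Activin A, -8.82 with Wnt3a and 1.16 with both, beside -0.429, 0.121 and -0.426 over all shared regions. Shifts of this size were common over the genome, with 36.4%, 43.6% and 36.6% of all shared regions moving by 20 points or more. The 4 regions ranking higher after Wnt3a were LIN28A 46.8 kb upstream (36.1 points), the starts of PRDM14 (23.7) and SALL4 (20.7), and DPPA4 21.1 kb from its start (46.9). The 3 ranking lower were the LIN28A start (-29.8), LIN28A at 21.3 kb (-39.2) and LIN28B 15.9 kb upstream (-52.5).

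The 3 comparisons of gained and lost regions share the control list. Activin A gained 35 of its 55 regions (63.6%, 49.6 to 76.2), against 70.0% of all Activin A regions, and lost 2 of 22 control regions (9.09%, 1.12 to 29.2), against 11.5%. After Wnt3a, 7 of 18 (38.9%, 17.3 to 64.3) were gained, against 33.1%, and 11 of 22 (50.0%, 28.2 to 71.8) lost, against 46.5%. After both ligands, 29 of 47 (61.7%, 46.4 to 75.5) were gained, against 62.5%, and 4 of 22 (18.2%, 5.19 to 40.3) lost, against 15.2%. The interval of each of these 6 shares included the share over the whole list, which again is a description and not a test. Among strong regions, 6 of 22 (27.3%, 10.7 to 50.2) were gained after Activin A, against 22.1%, and 5 of 20 (25.0%, 8.66 to 49.1) after both ligands, against 15.3%. All strong gained regions of either treatment were at DNMT3B, PRDM14 or, after Activin A, LIN28A at 6.5 kb. None of the 8 strong control regions was lost after Activin A or after both ligands, against 0.155% and 0.309% of all strong control regions.

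**Figure D4:**
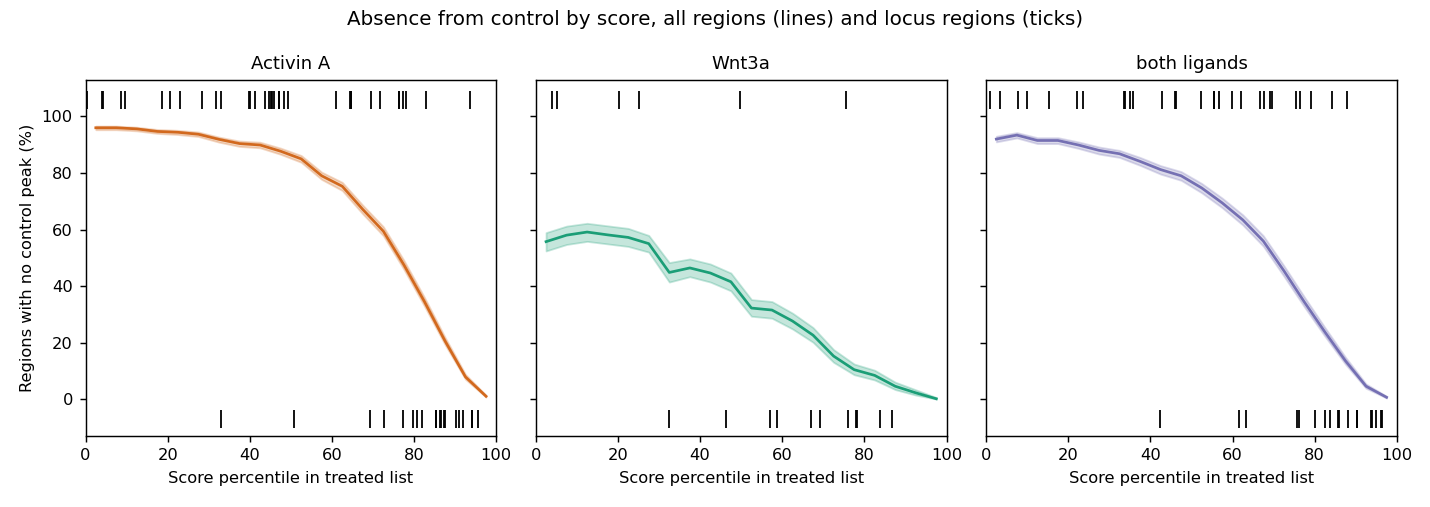
Share of all regions of each treated list that had no control peak, in %, by score percentile in that list (line, with the exact 95% interval shaded). Ticks above mark the locus regions with no control peak and ticks below those with one; the 2 rightmost upper ticks are DNMT3B +57.9 kb (93.6) and +16.2 kb (83.0) for Activin A, and the region 3.6 kb upstream of PRDM14 (75.5) is the rightmost for Wnt3a.

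With every list cut to 21078 peaks, the loci held 20 regions in control, 23 with Activin A, 18 with Wnt3a and 24 with both ligands. The gaps between the groups were far smaller than in the full lists, which follows in large part from giving every list the same length. Gained regions then numbered 6, 7 and 9 for the 3 treatments in that order, or 26.1%, 38.9% and 37.5% of the treated regions, against 32.2%, 39.0% and 32.9% of all. Lost regions numbered 3, 9 and 5 of 20, or 15.0%, 45.0% and 25.0%, against 30.2%, 39.9% and 30.9%. Of the 35 regions at equal length, 2 were in all 3 treated lists and not in control (5.71%, 0.700 to 19.2), against 6.18% of all regions: PRDM14 3.6 kb upstream and DNMT3B at 57.9 kb. Another 3 (8.57%) were in the Activin A and combined lists only, against 4.92%, namely LIN28A at 6.5 kb, DNMT3B at 16.2 kb and PRDM14 at 38.4 kb.

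The treated groups, which shared their medium, were also compared with each other. Between Activin A with and without Wnt3a, the lists differed by 9 of 47 combined regions with no Activin A peak (19.1%, 9.15 to 33.3), against 21.0% of all, and 17 of 55 Activin A regions with no combined peak (30.9%, 19.1 to 44.8), against 39.4%. None of these 26 regions was strong, against 0.305% of all strong combined and 1.35% of all strong Activin A regions. Of the 38 regions shared by the 2 lists, 3 ranked at least 20 points higher with both ligands (14.0% of all shared regions) and 2 lower (14.0%). The 3 were DNMT3B 18.7 kb and 10.4 kb upstream and the DPPA4 start, and the 2 were LIN28A 50.4 kb upstream (-37.4) and DNMT3B at 45.2 kb (-21.6).

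Between Wnt3a with and without Activin A, the lists differed by 32 of 47 combined regions with no Wnt3a peak (68.1%, 52.9 to 80.9), against 68.0% of all, and 3 of 18 Wnt3a regions with no combined peak (16.7%, 3.58 to 41.4), against 9.27%. Strong combined regions lacked a Wnt3a peak in 8 of 20 cases (40.0%, 19.1 to 63.9), against 21.8%. Among the 15 shared regions, 4 ranked at least 20 points higher with both ligands (19.2% of all) and 2 lower (20.1%). Those higher included LIN28B 15.9 kb upstream (43.7 points), LIN28A at 21.3 kb (43.2) and the LIN28A start (27.1), and those lower were LIN28A 46.8 kb upstream (-43.7) and DPPA4 at 21.1 kb (-35.0). Activin A alone against Wnt3a alone gave 40 of 55 regions with no Wnt3a peak (72.7%, 59.0 to 83.9), against 74.6%, and 3 of 18 with no Activin A peak (16.7%, 3.58 to 41.4), against 6.02%. Among the 15 shared regions, 4 ranked at least 20 points higher with Activin A than with Wnt3a (18.8% of all) and 5 lower (19.6%). The largest were LIN28B 15.9 kb upstream (40.1 points higher) and the region 3.6 kb upstream of PRDM14 (41.2 points lower). Strong Activin A regions lacked a Wnt3a peak in 10 of 22 cases (45.5%, 24.4 to 67.8), against 29.5%. The same 3 weak regions were in the Wnt3a list alone in both comparisons, at DNMT3B, PRDM14 and DPPA4.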

How the data were processed

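Chromatin accessibility was measured by ATAC-seq in 4 libraries, 1 per group. The reads were handled with CASAVA 1.8 and Bowtie2 2.2.2 on build hg19, per the submitters' processing notes. Each deposited list gives a chromosome, start, end, MACS-style name and score per peak. The score is the authors' own value, which in form appears to be a scaled logarithm of a p-value taken within 1 library. How peaks were called, how duplicate reads were treated and how deeply each library was sequenced is not given in the sources used here. Depth is therefore unknown.

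Peaks of the 4 lists sharing at least 1 base were merged into regions, and a region was assigned to a gene when any base lay within 50 kb of it. A score entered only as its percentile or rank in its list. Lists of equal length held the 21078 best peaks of each. Shifts in rank used regions found in both lists compared. The merging step was tested on the control list with some peaks removed and others planted in its gaps. Scores of the kept peaks were unchanged, so the ranking step was checked only for equal scores. The 95% intervals of shares are exact (Clopper-Pearson) and cover only counting error. They take regions as independent, although the regions at the loci cluster at a few genes. With 1 library per group no test between groups was made.

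Regions named are those within 1 kb of a gene start, those in the top 25% of a list, and the highest-ranking region gained or lost at each gene. Other regions were chosen after their values were seen. The genes, lists and measures were chosen with earlier results of these data known. Promoter sequences came from RefSeq (GRCh38.p14). The strands of LIN28A, PRDM14 and SALL4 are general knowledge and were read from no file. Marker genes of other cell types and further pluripotency genes needed hg19 positions and were not analysed here. Python 3.11.15, numpy 2.4.6, pandas 2.3.3, scipy 1.17.1 and matplotlib 3.10.9 were used.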

Additional observations from a re-analysis of the deposited data

How the results depend on the processing

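Depth is unknown, and presence of a weak peak can depend on it. Of 150 alternative values over 26 results, 75 stayed within 1.5 times (counts) or within the 95% interval of the reported value (percentiles) and 75 moved. That interval treats the median percentile as a share of the peaks in the list. It is narrow and does not measure the spread over the 4 genes. Wherever lists were shortened, windows changed or the threshold for a shift lowered, the counts follow from the construction. Ranking among regions in all 4 lists also kept only 11 locus regions, where Activin A and control share 20. For the other values that moved, the cause was not tested. Placing regions by their centre and merging within 500 bases moved none. Using autosomes only also moved none, but all the genes lie on autosomes, so that setting removed no locus region.

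With 10 kb on each side there were 15 peaks in control and 37 after Activin A. Gained regions then numbered 22 (Activin A), 4 (Wnt3a) and 19 (both), and lost regions 1, 6 and 2. There were 10 Activin A regions absent with both ligands, 20 combined and 24 Activin A regions absent after Wnt3a, and 1 Wnt3a region absent from each of these lists. With 100 kb there were 88 Activin A and 76 combined peaks. Activin A then gained 59 and lost 4 regions and both ligands gained 48. Combined regions lacking Activin A numbered 14 and the reverse 26, and 52 combined and 64 Activin A regions lacked Wnt3a.

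In the top 50% of scores, control had 11 peaks, Activin A 31 and Wnt3a 11. Regions gained were 20 (Activin A) and 3 (Wnt3a), and lost 0, 4 and 0. Combined regions lacking Activin A were 5, the reverse 4, Activin A regions lacking Wnt3a 21, and Wnt3a regions lacking either 0. At equal length there were 23 Activin A and 24 combined peaks, with 6 and 9 regions gained. Combined and Activin A lists then differed by 5 and 4 regions, combined and Wnt3a by 12 and 6, and Activin A and Wnt3a by 10 and 5. With lists no longer than control there were 26 Activin A and 31 combined peaks, 8 and 14 gained regions and 4 lost after Activin A. Activin A regions absent with both ligands were 3, combined and Activin A regions lacking Wnt3a 17 and 13, and Wnt3a regions lacking Activin A 5. Requiring a reciprocal overlap of 50% gave 6 (Activin A) and 11 (both) lost peaks, 14 combined peaks lacking Activin A, and 10 and 8 Wnt3a peaks lacking the combined and Activin A lists.

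The median start percentile at equal length was 67.2 in control, 66.1 after Activin A and 75.0 after both. Among regions in all 4 lists it was 55.0, 51.0, 47.3 and 62.7 for control, Activin A, Wnt3a and both. Within 2.5 kb of the start it was 85.1 in control, 71.5 after Wnt3a and 93.9 after both. Ranking among regions in all 4 lists left 1 region higher after Activin A, 2 higher and 0 lower after both. At 10 points, 5 were higher and 7 lower after Activin A and 4 lower after both. No paired analysis was possible because a group was a single library.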
